A study of Rattus norvegicus with 86 samples.

Results

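Apip, Cacul1 and Nudt4 are 3 of the 17250 genes measured by RNA-Seq in the prelimbic cortex (PL), a medial part of the rat prefrontal cortex, and were taken from the table by their Ensembl identifiers (ENSRNOG00000007446, ENSRNOG00000009954 and ENSRNOG00000009094). Their names come from the gene tables that accompany the study, which place Apip on chromosome 3, Cacul1 on chromosome 1 and Nudt4 on chromosome 7 of Rnor_6.0. Each library came from 1 Heterogeneous Stock (HS) rat, an outbred stock bred from inbred founder strains, and every rat was naïve to drugs and behavioural testing, so the study had no treated and control groups. Of 86 labelled samples, 6 had been removed and were not analysed here. The 80 kept rats (40 male and 40 female) fell into rat batches as the labels give them: 14 rats in batch 2 (3 female), 23 in batch 3 (13 female), 26 in batch 4 (15 female), a single female in batch 5 and 16 in batch 6 (8 female). Values are log2 of the upper quartile adjusted read count plus 1, not divided by gene length. They compare rats within a gene but not the abundance of one gene with that of another. Because PL was dissected as bulk tissue, fewer cells of a type and less RNA per cell cannot be told apart.

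The 3 genes encode proteins of unrelated pathways. Apip is a dehydratase of the methionine salvage pathway, which returns the sulphur-containing by-product of polyamine synthesis to methionine. The same protein binds Apaf1, the scaffold of the caspase-activating apoptosome, and was named for that contact. Cacul1 carries a cullin domain, the fold of the scaffolds of ubiquitin ligases, and associates with CDK2, a kinase of the cell cycle. Nudt4 is a Nudix hydrolase that takes a phosphate off diphosphoinositol polyphosphates, the highly phosphorylated inositols that act as metabolic messengers.

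The sequence just upstream of the annotated start of each gene is shown for context. No measurement was made on these promoters. The windows are the 250 bases before the RefSeq start on GRCr8, 5′ to 3′ on the gene's strand: Apip at chr3:109886669-109886918 (plus strand), Cacul1 at chr1:269712113-269712362 (minus) and Nudt4 at chr7:32091492-32091741 (minus). Capitals mark matches, on either strand, to 5 short motifs: the GC box GGGCGG, the CCAAT box, the TATA box TATAAA, the E-box CACGTG and the AP-1 site TGACTCA.
Apip: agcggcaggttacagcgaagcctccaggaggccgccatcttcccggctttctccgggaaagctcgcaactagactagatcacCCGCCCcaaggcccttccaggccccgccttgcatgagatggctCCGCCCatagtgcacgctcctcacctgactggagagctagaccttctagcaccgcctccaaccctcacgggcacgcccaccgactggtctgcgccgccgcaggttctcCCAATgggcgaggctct
Cacul1: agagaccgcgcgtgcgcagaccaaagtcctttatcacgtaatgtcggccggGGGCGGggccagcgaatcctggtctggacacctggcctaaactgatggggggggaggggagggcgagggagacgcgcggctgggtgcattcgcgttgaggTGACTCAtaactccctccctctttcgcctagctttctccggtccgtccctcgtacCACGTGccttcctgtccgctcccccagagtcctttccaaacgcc
Nudt4: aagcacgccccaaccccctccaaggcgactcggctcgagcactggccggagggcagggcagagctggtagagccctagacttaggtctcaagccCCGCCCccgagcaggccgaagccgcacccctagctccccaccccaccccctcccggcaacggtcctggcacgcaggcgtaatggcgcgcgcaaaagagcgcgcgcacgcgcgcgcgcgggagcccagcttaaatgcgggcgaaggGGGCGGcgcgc
All 3 windows are rich in CG pairs, with 18 in Apip, 22 in Cacul1 and 30 in Nudt4, against a median of 5 in the 33469 windows of this length. All 3 hold a GC box, found in 30.5% of the windows. Apip alone of the 3 has a CCAAT match (34% of the windows), and Cacul1 alone has an E-box (5.59%) and an AP-1 match (4.05%). TATAAA (12.9%) is in none. On GRCr8 the start of Apip lies 50 bases from that of Pdhx, a component of pyruvate dehydrogenase, and the genes are transcribed away from each other, so that most of the Apip window lies within the Pdhx gene model.

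All 3 genes were expressed in every rat, and Apip varied the most. Apip ran from 5.98 (62 adjusted counts) in the lowest rat through a median of 6.86 (115) to 7.65 (200) in the highest, a 3.19-fold range, with a mean of 6.86 ± 0.32 (SD, n = 80). Cacul1 ran from 9.72 (842 adjusted counts) through 10.20 (1179) to 10.54 (1486), a 1.76-fold range, with a mean of 10.18 ± 0.16 (SD, n = 80). Nudt4 ran from 11.49 (2885 adjusted counts) through 11.86 (3714) to 12.18 (4635), a 1.61-fold range, with a mean of 11.84 ± 0.17 (SD, n = 80). Between the rats at the 10th and 90th percentiles the level changed 1.78-fold for Apip, 1.30-fold for Cacul1 and 1.35-fold for Nudt4. The values were spread without a gap into separate groups in the plot of each rat by batch.

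A gene with few reads varies more from counting alone, so each SD was set beside those of genes of a similar level, within 0.5 log2 units of its mean. Apip's SD of 0.32 exceeded that of 64.2% of 1584 such genes, whose median was 0.28. Cacul1's SD of 0.16 exceeded that of 44.6% of 2178 genes (median 0.16), and Nudt4's SD of 0.17 exceeded that of 63.2% of 881 genes (median 0.15). All 3 thus lay in the middle of the range for their level, as the plot of SD against level shows. Taking the adjusted counts as counts, Poisson error at the median rat would give an SD of 0.13 for Apip, 0.042 for Cacul1 and 0.024 for Nudt4, or 17.2%, 7.30% and 2.04% of the variance.

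**Figure D1:**
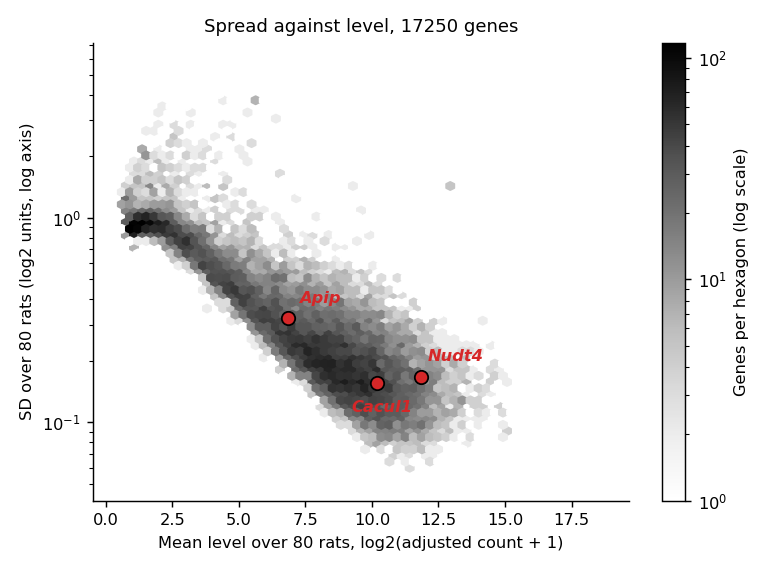
SD of each of the 17250 genes over 80 rats (log axis) against its mean level in log2(adjusted count + 1). Grey hexagons count genes, and the red points are Apip, Cacul1 and Nudt4. Each member lies inside the cloud of genes at its level, with SDs of 0.32, 0.16 and 0.17.

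Rat batch, which the labels give with no further description, accounted for unlike shares of this spread. It held 5.26% of the variance of Apip, 26.6% of that of Cacul1 and 23.1% of that of Nudt4, against a median of 16.8% over all genes. In the limma F-test over batches, which took sex as a covariate, Cacul1 (adjusted p = 0.000307) and Nudt4 (adjusted p = 0.00211) differed between batches and Apip was not called (adjusted p = 0.461). Since 59.4% of all 17250 genes were called in this test, 2 of 3 members is close to the background.

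Cacul1 was lowest in batch 3. Its 23 rats ran from 9.72 through a median of 10.08 to 10.34 (mean 10.06 ± 0.17, SD). The 26 rats of batch 4, the highest by mean, ran from 9.93 through 10.25 to 10.54 (10.26 ± 0.12), and 25 of them lay above the median of batch 3, though the ranges overlapped. The 14 rats of batch 2 ran from 9.99 through 10.21 to 10.32 (10.20 ± 0.10), and the 16 rats of batch 6 from 9.98 through 10.16 to 10.44 (10.18 ± 0.14). The single rat of batch 5 was at 10.24. Batch 4 exceeded batch 3 by 0.20 log2 units (SE 0.04, limma adjusted p = 1.05e-05, a contrast in which 51.7% of genes were called). Batch 6 exceeded batch 3 by 0.12 (SE 0.04, limma adjusted p = 0.0233, 49.9% of genes called). In order of level, the neighbours batch 4 and batch 2 (difference 0.07, adjusted p = 0.257) and batch 2 and batch 6 (difference -0.02 for batch 6 minus batch 2, adjusted p = 0.848) were not told apart by limma, and batch 3 minus batch 2 gave -0.13 (SE 0.05, adjusted p = 0.0773, 5.7% of genes called). Without batch 3 the F-test of Cacul1 was no longer called (adjusted p = 0.243), nor was it without batch 4 (adjusted p = 0.0597).

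Nudt4 was highest in batch 2 and lowest in batch 6. The 14 rats of batch 2 ran from 11.84 through a median of 11.97 to 12.18 (mean 11.99 ± 0.10, SD), and all 14 lay above the medians of batches 4 and 6. The 23 rats of batch 3 ran from 11.53 through 11.90 to 12.13 (11.84 ± 0.18). The 26 rats of batch 4 ran from 11.53 through 11.80 to 12.04 (11.82 ± 0.14), and the 16 rats of batch 6 from 11.49 through 11.71 to 12.01 (11.74 ± 0.16). The single rat of batch 5 was at 11.74. With sex as covariate, Nudt4 fell by 0.16 log2 units from batch 2 to batch 4 (SE 0.05, limma adjusted p = 0.00783, 37.2% of genes called) and by 0.25 from batch 2 to batch 6 (SE 0.05, limma adjusted p = 0.000181, 38.3% of genes called). The neighbours in order of level were not told apart: batch 3 minus batch 2 was -0.14 (adjusted p = 0.0731), batch 4 minus batch 3 was -0.02 (adjusted p = 0.773) and batch 6 minus batch 4 was -0.09 (adjusted p = 0.288, 6.23% of genes called). Without batch 2 the F-test of Nudt4 was not called (adjusted p = 0.287). Batch 2 held only 3 females, and in females alone the F-test of Nudt4 was not called either (adjusted p = 0.367), with batch 6 minus batch 2 at -0.19 and batch 4 minus batch 2 at -0.085 log2 units.

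Apip did not separate by batch. The 14 rats of batch 2 ran from 6.19 through a median of 6.81 to 7.33 (mean 6.81 ± 0.32, SD), and the 23 rats of batch 3 from 6.34 through 6.92 to 7.65 (6.93 ± 0.34). The 26 rats of batch 4 ran from 5.98 through 6.95 to 7.37 (6.88 ± 0.33), and the 16 rats of batch 6 from 6.34 through 6.80 to 7.25 (6.76 ± 0.28). The single rat of batch 5 was at 7.24. Of the 6 pairs of batches none was called by limma, and the lowest adjusted p was 0.191, for batch 6 minus batch 3 (-0.16, SE 0.11, 95% interval -0.37 to 0.04). The intervals of the 6 differences reached from -0.37 to 0.34. For batch 6 minus batch 2, the interval of Apip (-0.28 to 0.19) held the difference called in Nudt4 (-0.25). For batch 4 minus batch 2 (-0.149 to 0.284) it did not hold that called in Nudt4 (-0.161). Nor did it hold those called in Cacul1, for batch 4 minus batch 3 (-0.23 to 0.13, against 0.20) and batch 6 minus batch 3 (against 0.12).

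**Figure D2:**
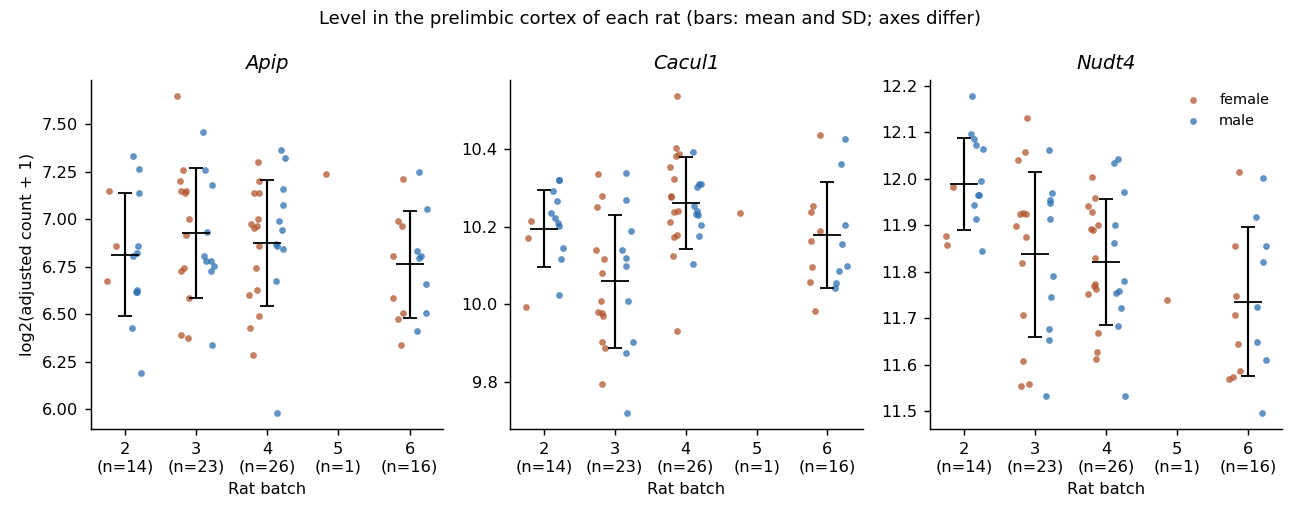
Level of Apip, Cacul1 and Nudt4 in each of 80 rats as log2(adjusted count + 1), by rat batch, with females in brown and males in blue (black bars: mean and SD, not drawn for the single rat of batch 5; each panel has its own axis). Cacul1 sits lowest in batch 3 (mean 10.06) and Nudt4 highest in batch 2 (mean 11.99), while the batches of Apip overlap.

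**Figure D3:**
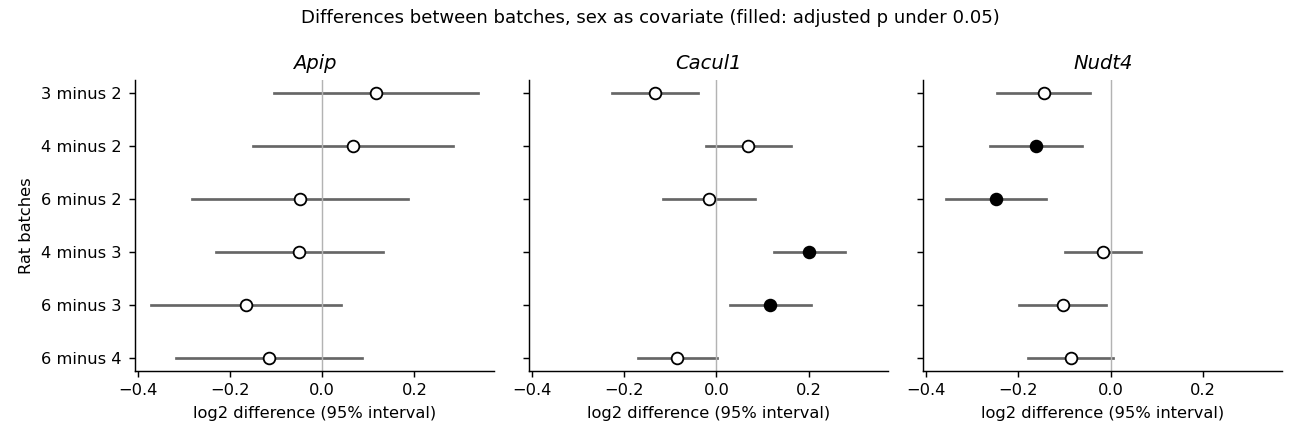
Differences in log2 level between pairs of rat batches, from limma with sex as covariate (points: difference; lines: 95% interval for that gene alone; filled points: adjusted p under 0.05 over all genes). Cacul1 is called for batches 4 and 6 minus batch 3, Nudt4 for batches 4 and 6 minus batch 2, and Apip for no pair.

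Markers of cell types were scarce among the genes with a name. Of 12 lists, 11 had at least 1 marker with a name matched to an identifier and none more than 3. The other markers could not be followed, which does not mean that they were not measured. No marker with a matched name was at 0 in all rats. The glutamatergic markers Slc17a6 and Neurod6 and the GABAergic markers Slc32a1, Vip and Dlx2 were among those matched. The summed level of each of these lists lay between 10.74 and 11.64 in every rat of batches 2, 3, 4 and 6. In the batch test, which called 59.4% of all genes, some markers were called and others were not. Called were Slc32a1 (1 of 3 GABAergic markers), Penk (1 of 2 striatal markers), and P2ry12 and C1qa (2 of 3 microglial markers). Olig2 of the oligodendrocyte lineage and Rgs5 of pericytes, each the 1 marker of its list with a matched name, were called as well. Vip, Dlx2, Pdyn and Itgam of the same lists were not called, nor was any matched marker of the other lists. The summed level of the striatal markers Penk and Pdyn ranged from 10.32 to 11.34 in batch 2 and from 10.27 to 11.18 in batch 3. In batch 4 it ranged from 9.99 to 10.85, and in batch 6 from 9.88 to 10.96. With batch and sex removed, the striatal markers had r = -0.08 with Nudt4 (adjusted permutation p = 0.693). With Cacul1 they had r = -0.30 (adjusted permutation p = 0.0589). The part of the markers in the batch differences of Cacul1 and Nudt4 was not tested.

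Males and females did not separate in any of the 3 genes. Apip ran from 5.98 through 6.83 to 7.46 in the 40 males and from 6.29 through 6.94 to 7.65 in the 40 females. Cacul1 ran from 9.72 through 10.21 to 10.43 in males and from 9.79 through 10.18 to 10.54 in females. Nudt4 ran from 11.49 through 11.91 to 12.18 in males and from 11.55 through 11.84 to 12.13 in females. With batch as covariate, males minus females was 0.01 for Apip (95% interval -0.14 to 0.16, limma adjusted p = 0.993), 0.01 for Cacul1 (-0.05 to 0.07, adjusted p = 0.982) and 0.02 for Nudt4 (-0.05 to 0.08, adjusted p = 0.961). Over all genes, 63 were called (0.365%). The sex by batch interaction was not called for any member (limma adjusted p = 0.99986 for each), nor for any of the 17250 genes.

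No pair of the 3 genes was called as moving together across rats. With batch and sex removed, Pearson's r was 0.05 between Apip and Cacul1 (permutation p = 0.682, Spearman's rho 0.10, permutation p = 0.383), 0.05 between Apip and Nudt4 (p = 0.646, rho 0.08, p = 0.458) and 0.20 between Cacul1 and Nudt4 (p = 0.0834, rho 0.18, p = 0.104). The adjusted permutation p over the 3 pairs was 0.682, 0.682 and 0.25 for r, and 0.458, 0.458 and 0.312 for rho. In batches 2, 3, 4 and 6, r between Cacul1 and Nudt4 was -0.12, 0.26, 0.12 and 0.25, and without the 2 rats farthest from the median of Cacul1 it was 0.12. With the first 20 expression principal components removed in place of batch and sex, r between Cacul1 and Nudt4 was 0.27 (permutation p = 0.0327, adjusted p = 0.0981). In that setting Apip had r = -0.11 with Cacul1 and -0.10 with Nudt4 (permutation p = 0.407 and 0.449).

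How many other genes rose and fell with a member from rat to rat differed widely between the 3. Each of the other 17249 genes was tested against the member in limma with batch and sex as covariates. For Cacul1, 6793 genes were called (39.4%), of which 3294 were positive and 3499 negative. For Nudt4, 1819 were called (10.5%), 960 positive and 859 negative. For Apip only 5 were called (0.029%), 4 positive and 1 negative, although 2361 had an unadjusted p under 0.05. Partial r ran from -0.74 to 0.82 for Cacul1, from -0.56 to 0.68 for Nudt4 and from -0.49 to 0.49 for Apip. Only genes with a name and a mean of at least 5 are ranked below, so they need not be the closest of all genes. The plot of correlations shows the broad distribution for Cacul1 and the narrow one for Apip.

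The study mapped eQTLs with expression principal components as covariates, and the same fit was made here with the first 20 components in place of batch and sex. The components were computed from these same values, members included. Weaker correlations and fewer calls after their removal are therefore partly built in. The components held 34.2% of the variance of Apip, 81.4% of that of Cacul1 and 59.8% of that of Nudt4, against a median of 62.2% over all genes. The first component alone held 1.40%, 31.0% and 13.9%, against a median of 12.5%. With them removed the SD fell to 0.30 for Apip, 0.078 for Cacul1 and 0.12 for Nudt4. Limma then called 0 genes for each of the 3, with 801, 971 and 905 at an unadjusted p under 0.05. With a rank-based normal transformation and no variance trend, 3 were called for Apip in this fit.

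**Figure D4:**
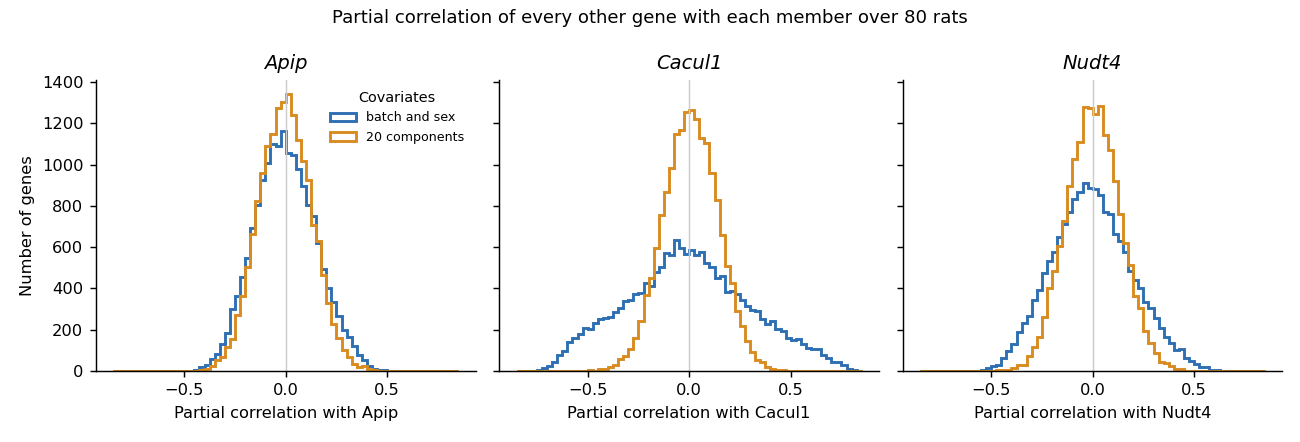
Distribution over 17249 other genes of the partial correlation with Apip, Cacul1 and Nudt4 across 80 rats, with batch and sex (blue) or 20 principal components (orange) as covariates. With batch and sex the Cacul1 distribution is the broadest, from -0.74 to 0.82, and with the components all 3 are narrow.

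The closest named gene of Cacul1 was Rock2, a kinase that acts on the actin cytoskeleton (r = 0.78, rho = 0.77, permutation p = 1e-05 for each, limma adjusted p = 1.92e-13). It was followed by Cpsf6, a factor of mRNA 3′ end cleavage, Far1, a fatty acyl-CoA reductase of ether lipid synthesis, Ppp1cb, a catalytic subunit of protein phosphatase PP1, and Strn3, a striatin scaffold, with r from 0.74 to 0.77 and rho from 0.73 to 0.75. The most negative were Rnf208, a RING finger protein (r = -0.71, rho = -0.72), Sh3glb2, an endophilin of membrane traffic (r = -0.70, rho = -0.70), and Gpr137, a membrane protein of the lysosome (r = -0.70, rho = -0.69). All 8 had a permutation p of 1e-05 for r and for rho, the smallest that 100000 permutations can give. All 8 kept their sign in each of the 4 batches. In batches 2, 3, 4 and 6 Rock2 had r of 0.49, 0.80, 0.77 and 0.87, and Rnf208 had -0.67, -0.64, -0.76 and -0.86. Without the 2 rats farthest from the median of Cacul1, r stayed between 0.74 and 0.76 for the positive 5 and between -0.74 and -0.70 for the negative 3. All 8 also differed between batches (limma adjusted p from 1.79e-08 to 0.00148), as 59.4% of all genes did.

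With 20 components removed, these correlations shrank, to 0.13 for Rock2, 0.18 for Cpsf6 and -0.16 for Rnf208. Of the 8, Strn3 alone stayed among the 5 highest named genes, with r = 0.38 (rho 0.31, permutation p of r = 0.00289, limma adjusted p = 0.725). The highest of the named genes was then Pak6, a p21-activated kinase (r = 0.45, rho 0.35, permutation p = 0.00022, limma adjusted p = 0.662), which had r = -0.09 with batch and sex. Over all genes the highest r was 0.49. The lowest was Serac1, a protein of phosphatidylglycerol remodelling (r = -0.48, rho -0.42, permutation p = 0.00013, limma adjusted p = 0.662). Herc6, Ccnd2 (cyclin D2) and Tnks1bp1 on the positive side had r of 0.38, and Zfp524 and Nfs1, the cysteine desulfurase of iron-sulphur cluster assembly, on the negative side had -0.43 and -0.41. None of these 8 was called. Batches were too small for 20 covariates, so no value within a batch is given for this fit.

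For Nudt4 the 5 named genes with the highest r were Scamp1, a membrane protein of secretory carriers (r = 0.56, rho = 0.55), Lysmd2, a LysM domain protein (r = 0.56, rho = 0.55), Emc7, a subunit of the endoplasmic reticulum membrane complex (r = 0.56, rho = 0.58), RGD1311703 (r = 0.56, rho = 0.56) and Sptssb, a small subunit of serine palmitoyltransferase in sphingolipid synthesis (r = 0.55, rho = 0.56). The 3 most negative were Dennd2a, an exchange factor for Rab GTPases (r = -0.55, rho = -0.51), Pacs2, a sorting protein of endoplasmic reticulum and mitochondrial contacts (r = -0.52, rho = -0.54), and Dio3, the deiodinase that inactivates thyroid hormone (r = -0.51, rho = -0.51). The permutation p was 1e-05 for each r and rho, other than 2e-05 for the rho of Dio3, and the limma adjusted p lay between 0.000173 and 0.000634. In batches 3, 4 and 6 all 8 kept their sign, with absolute r from 0.44 to 0.83. In batch 2, where Nudt4 was high and its SD least, r was weak for most of them: 0.17 for Scamp1, -0.023 for Lysmd2, 0.21 for Dennd2a and -0.04 for Pacs2, but 0.51 for RGD1311703. Leaving out the 2 rats farthest from the median of Nudt4 left absolute r between 0.50 and 0.57.

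With 20 components removed, Pacs2 was the one gene of these 8 still among the 5 highest or 3 lowest named genes for Nudt4 (r = -0.40, rho -0.39, permutation p of r = 0.00138, limma adjusted p = 0.773). The lowest of the named genes was Synm, an intermediate filament protein (r = -0.46, rho -0.40, permutation p = 0.00019, limma adjusted p = 0.773), and the third was Smoc1, a secreted matrix protein (r = -0.40). Over all genes r ran from -0.48 to 0.46. Among named genes on the positive side, Gprin3, Cyb561a3, Fam3c, Klhdc10 and Aig1 had r from 0.36 to 0.38. None was called.

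For Apip the called genes with a name were Mpped2, a metallophosphoesterase (r = 0.49, permutation p = 3e-05, rho = 0.48, permutation p = 2e-05, limma adjusted p = 0.043), and Cd59, the membrane-anchored inhibitor of the complement attack complex (r = 0.49, permutation p = 5e-05, rho = 0.48, permutation p = 4e-05, limma adjusted p = 0.043). Both lie on chromosome 3, as Apip does. In batches 2, 3, 4 and 6 Cd59 had r of 0.42, 0.45, 0.56 and 0.56, and Mpped2 had 0.82, 0.26, 0.63 and 0.29. Without the 2 rats farthest from the median of Apip, r rose to 0.53 for Cd59 and 0.54 for Mpped2. The other 3 called genes have an identifier only: ENSRNOG00000014422 (r = 0.49, rho 0.49), ENSRNOG00000032232 (r = 0.48, rho 0.47) and ENSRNOG00000005483 (r = -0.49, rho -0.49), with permutation p from 2e-05 to 5e-05 and the same sign in all 4 batches. The 5 calls sat at the threshold: without batch 2, without batch 4, without batch 6 or with median-of-ratios scaling, limma called 0 genes, with an adjusted p of 0.0513 for Cd59 and Mpped2 under that scaling, while without batch 3 it called 59.

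The next named genes for Apip were not called. They were Hebp2, a heme-binding protein (r = 0.45, adjusted p = 0.0907), Cby1, a ciliary antagonist of beta-catenin (r = 0.42, adjusted p = 0.0965), and Rplp2, a protein of the ribosomal stalk (r = 0.42, adjusted p = 0.0965), and on the negative side Nphp4, a nephrocystin of cilia (r = -0.42), Acap3, a GTPase-activating protein for Arf (r = -0.41), and Phf21b, a PHD finger protein (r = -0.41), each tested by limma. Their rho lay between 0.40 and 0.45 for the positive 3 and between -0.40 and -0.39 for the negative 3, with permutation p from 2e-05 to 0.00049 for r and from 9e-05 to 0.00043 for rho. Each kept its sign in all 4 batches, with r near 0 for Rplp2 in batch 2 (0.03) and Acap3 in batch 3 (-0.03).

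**Figure D5:**
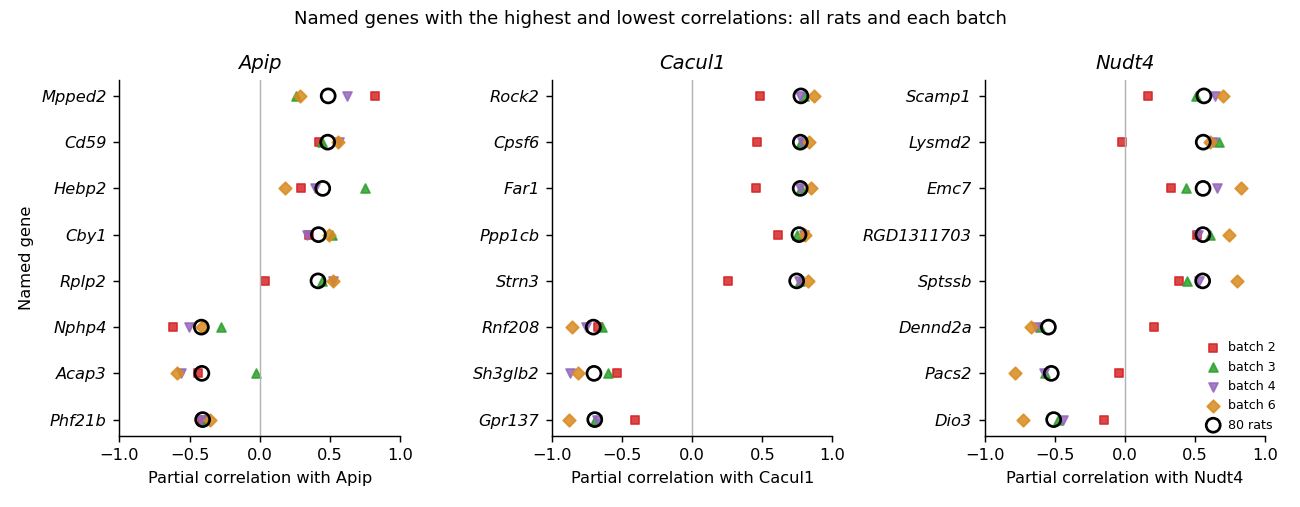
Partial correlation of the 5 highest and 3 lowest named genes with Apip, Cacul1 and Nudt4, over 80 rats (open circles; batch and sex as covariates) and in each batch of at least 14 rats (coloured symbols; sex as covariate). The Cacul1 genes keep their sign in every batch, while in batch 2 Lysmd2 (-0.023) and Dennd2a (0.21) stand apart from the other batches for Nudt4.

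With 20 components removed, no gene was called against Apip, and the 4 named genes with the highest r lie on chromosome 3. They were Tcp11l1 (r = 0.54, rho 0.52, permutation p of r = 1e-05, limma adjusted p = 0.111), Cd59 (r = 0.52, rho 0.50, permutation p = 2e-05, adjusted p = 0.170), Mpped2 (r = 0.45, rho 0.42, permutation p = 0.00059, adjusted p = 0.994) and Pamr1 (r = 0.43, rho 0.46, permutation p = 0.00068, adjusted p = 0.994). In the RefSeq order of coding genes on GRCr8, 3 genes lie between Apip and Pamr1, 8 between Apip and Cd59, 13 between Apip and Tcp11l1 and 28 between Apip and Mpped2. The fifth, Odf2l on chromosome 2, had r = 0.39. On the negative side were AABR07051518.1, also of chromosome 3 (r = -0.39), Atf6, a transcription factor of the unfolded protein response (r = -0.38), and RGD1561161 (r = -0.35). Of the 20 named genes with the largest absolute r, 7 were on chromosome 3, which holds 12.4% of the 2713 named genes of this level. With batch and sex as covariates, 4 of 20 were. For Cacul1, 6 of 20 were on its chromosome 1 (20.0% of named genes), and for Nudt4, 1 of 20 was on its chromosome 7 (8.0%). Names come from tables of genes with nearby QTLs or region-specific expression, so these shares need not hold for all genes. Without the 2 rats farthest from the median of Apip, r was 0.46 for Tcp11l1 and 0.52 for Cd59. With 10 components in place of 20, an alternative added after the data were seen, limma called both (adjusted p = 0.00772 for each, 2 genes in all).

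Few immediate neighbours of the members could be followed, since most have no name among the identifiers. Within 1000000 bases on GRCr8, 5 of 15 coding genes near Apip, 2 of 13 near Cacul1 and 2 of 10 near Nudt4 were matched, and limma called none of them in either fit. Near Apip, with 20 components removed, Pamr1 had r = 0.43 and Caprin1, an RNA-granule protein, had 0.39 (rho 0.43, permutation p of r = 0.00148), while Fbxo3, an F-box protein, had -0.35 (rho -0.37, permutation p = 0.00609). Cat, the catalase gene, had 0.09 and Fjx1 had 0.11. With batch and sex as covariates the same 5 had r of 0.31 for Pamr1, 0.27 for Caprin1, -0.15 for Fbxo3, 0.25 for Cat and 0.00 for Fjx1. Near Cacul1, Prlhr had 0.05 and Sfxn4 had 0.16. Near Nudt4, Plxnc1 had -0.26 and Eea1 had -0.17, with limma adjusted p of 0.125 and 0.343.

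Other genes of the pathways of Apip were called in the batch test and not against Apip, beside 59.4% and 0.029% of all genes, so the absence of calls against Apip is what the background gives. Of 30 listed genes of methionine salvage and polyamine synthesis, 10 had an identifier with a name, all 10 were called in the batch test and none was called against Apip, with r from -0.12 to 0.19 (median 0.08, against -0.01 over all genes). The smallest p for batch were those of Mat2a, the methionine adenosyltransferase (limma adjusted p = 2.37e-06), and Odc1, the first enzyme of polyamine synthesis (adjusted p = 3.64e-06). Over batches 2, 3, 4 and 6 the means of Mat2a were 11.90 ± 0.10, 11.75 ± 0.13, 11.97 ± 0.15 and 11.97 ± 0.16 (SD) and those of Odc1 were 10.56 ± 0.12, 10.57 ± 0.11, 10.43 ± 0.12 and 10.37 ± 0.11. Bhmt, which remakes methionine from betaine, fell from 7.50 ± 0.42 in batch 2 to 6.73 ± 0.45 in batch 6 (F-test over batches, limma adjusted p = 1.91e-05). Azin1, an inhibitor of antizyme (adjusted p = 0.000886), and Adi1, the dioxygenase of a later step of the salvage pathway (adjusted p = 0.000977), were called as well. Of 16 listed apoptosome and caspase genes, 5 had an identifier with a name and none of these was called against Apip. In the batch test, which called 59.4% of all genes, Bcl2l1 (adjusted p = 1.72e-12), Casp9 (0.0101) and Bcl2 (0.0413) were called, and Casp1 was not.

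The relatives and partners of Cacul1 with a matched name went in both directions with it. Of 26 listed cullins and cullin regulators 4 had an identifier with a name, and 3 of these 4 were called against Cacul1, beside 39.4% of all genes. Uba3, a subunit of the enzyme that activates Nedd8 for attachment to cullins, rose with Cacul1 (r = 0.68, rho 0.66, permutation p = 1e-05 for each, limma adjusted p = 8.73e-10, r from 0.56 to 0.78 within batches). Ube2m, the enzyme that carries Nedd8 to cullins, went the other way (r = -0.41, permutation p = 0.00028, rho -0.39, permutation p = 0.00048, adjusted p = 0.00109, r from -0.59 to -0.23 within batches), as did Cand2, which binds cullins free of Nedd8 (r = -0.44, permutation p = 6e-05, rho -0.46, permutation p = 3e-05, adjusted p = 0.000422), with r of -0.06 in batch 3 and -0.88 in batch 6. Rbx1, the RING subunit, was not called (r = 0.15). The median r of the 4 was -0.13. Of 16 listed genes of CDK2, its cyclins and inhibitors 5 had an identifier with a name. Of these 5, Cdkn1b, the CDK inhibitor p27, was the one called, a share below the 39.4% of all genes (r = 0.63, rho 0.61, permutation p = 1e-05 for each, limma adjusted p = 2.89e-08), with r of -0.15, 0.66, 0.77 and 0.84 over batches 2, 3, 4 and 6. Ccna1, Cdkn1c, Mnat1 and Cdc25a had r from -0.16 to 0.14. With 20 components removed, none of the 4 was called, with r of 0.19 for Uba3, 0.018 for Ube2m, -0.19 for Cand2 and 0.12 for Cdkn1b. In the batch test, which called 59.4% of all genes, Ube2m (limma adjusted p = 3.11e-13), Rbx1 (0.00276) and Uba3 (0.00631) were called. Cand2 and the 5 matched genes of the CDK2 list were not.

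The genes of Nudt4's pathways with a matched name were not called against it, in a test that called 10.5% of all genes, so 0 of so few is near the background. Of 24 listed genes of inositol phosphate metabolism 5 had an identifier with a name, with r from -0.23 for Isyna1, the inositol phosphate synthase, to 0.16 for Plcb1, a phospholipase C. Of 19 listed Nudix hydrolases 3 had an identifier with a name, with r of 0.13 for Nudt14, -0.07 for Nudt17 and 0.12 for Nudt19. In the batch test 4 of the 5 inositol genes were called, beside 59.4% of all genes, led by Ip6k2, a kinase that makes diphosphoinositol phosphates, with limma adjusted p of 1.59e-09 for Ip6k2, 0.000283 for Isyna1, 0.00806 for Plcb1 and 0.0173 for Ippk. Over batches 2, 3, 4 and 6 the means of Ip6k2 were 10.46 ± 0.08, 10.40 ± 0.12, 10.26 ± 0.08 and 10.19 ± 0.11 (SD), highest in batch 2 and lowest in batch 6 as Nudt4 was. Between those 2 batches 38.3% of all genes were called, and with batch and sex as covariates Ip6k2 had r = 0.13 with Nudt4 (limma adjusted p = 0.535). Nudt19 (adjusted p = 1.09e-08) and Nudt14 (2.90e-05) were called too, and both were highest in batch 3.

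Few relations between the members and lists of cell type markers were called. Over 33 relations of a member with a marker list, with batch and sex removed, 3 had an adjusted permutation p of r under 0.05. Cacul1 rose with the glutamatergic markers Slc17a6 and Neurod6 (r = 0.42, permutation p = 0.00021, adjusted p = 0.00693, rho 0.44, permutation p = 6e-05, adjusted p = 0.00198), with r of 0.45, 0.47, 0.34 and 0.58 in batches 2, 3, 4 and 6, and r = 0.46 without the 2 rats farthest from the median of the markers. It fell as the astrocyte marker Aldh1l1 rose (r = -0.35, permutation p = 0.00171, adjusted p = 0.0282, rho -0.37, permutation p = 0.0008, adjusted p = 0.0132), with r from -0.50 to -0.15 within batches. Without the 2 rats farthest from the median of Aldh1l1, r was -0.32 (adjusted p = 0.0955). Apip had r = 0.34 with the oligodendrocyte marker Opalin (permutation p = 0.0029, adjusted p = 0.0319, rho 0.31, permutation p = 0.00461, adjusted p = 0.0507), with r of 0.54, 0.40, 0.31 and 0.00 in the 4 batches, and 0.29 (adjusted p = 0.140) without the 2 rats farthest from the median of Opalin. Nudt4 had no relation with an adjusted p under 0.05. For Cacul1, 2 of 11 lists were called, where 39.4% of single genes co-varied with it. Each of these lists rests on 1 or 2 genes, and their part in the correlations of Cacul1 and Apip with other genes was not tested.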

How the data were processed

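PL RNA-Seq of 80 HS rats (1 library each) was analysed. The authors trimmed reads with cutadapt, estimated counts per gene with RSEM on the Ensembl rat transcriptome (Rnor_6.0), adjusted them to a common upper quartile in DESeq2 and deposited the log2 of each adjusted count plus 1. Tool versions were not given in the sources used here. Undoing the log gave whole numbers for 100% of values within 0.1%, so the adjusted counts had been rounded. They summed to between 16957388 and 20613398 per library (median 17964801), sums that the adjustment sets and that do not measure depth. No count test was run, because the original counts of reads were not analysed here. Counting errors given in the text take the adjusted counts as if they were reads and cover counting error only.

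Sex and rat batch came from the labels, and each column was matched to its sample by name. The labels and methods give no second PL library per rat, so the spread is that between rats. The study also sequenced other brain regions, which were not analysed here. Batch (F-test and 6 pairs, sex as covariate), sex (batch as covariate), their interaction, and the slope of every other gene on each member were fitted with limma 3.58.1 in R 4.3.3 (lmFit, eBayes with trend) over all 17250 genes, with Benjamini-Hochberg adjustment and a threshold of 0.05. Pair adjustment was made within each contrast. Co-variation was fitted with batch and sex, or with the first 20 principal components of gene-centred expression, as covariates. Named correlations are partial, with two-sided permutation tests (100000 resamples of the residuals, numpy 2.4.6 in Python 3.11.15). With 20 components no permutation p of rho was computed. The batch test, the sex test and the co-variation with Apip were first tested on data with known answers.

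The members and gene lists were chosen with earlier results of these data known. Named genes follow a fixed rule: the 5 highest and 3 lowest partial correlations among named genes with a mean of at least 5, pathway genes called (up to 5), and neighbours called. Neighbours not called, the unnamed genes called for Apip and pathway genes given as uncalled were added after their values were seen. The study's gene tables pair 3292 identifiers (19.1%) with a name and a chromosome. By their titles, those tables list genes with nearby eQTLs or splicing QTLs, or with expression specific to a brain region. Where entries are listed by brain region first, names were taken from those of the infralimbic cortex and not of PL. The named genes are therefore not a random share of those measured. The larger table used here covers chromosomes 1 to 7, so genes of other chromosomes are named less often. RefSeq tables (GRCr8) gave gene order and promoter sequences by symbol. All 3 members matched. Genotypes, eQTLs and splicing were not analysed here.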

Additional observations from a re-analysis of the deposited data

How the results depend on the processing

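Values below were obtained by changing 1 choice at a time, other than the rank-based normal transformation, which was fitted without the variance trend. The alternatives with 10 components, with 20 components besides batch and sex, with components computed without the member's chromosome, and with median-of-ratios scaling of the co-variation fits were added after the data were seen, as were the other settings of the fit with 20 components. No paired analysis was possible within PL because each rat gave 1 PL library and belonged to 1 batch and 1 sex. The cause of each change was not tested. Fewer rats entered the fits where batches or a sex were left out.

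The batch differences depended on which batches and sexes were kept. In females alone 6225 genes were called and the adjusted p of Nudt4 was 0.367. Without batch 2 it was 0.287. Without batch 3 the batch test called 6611 genes and the adjusted p of Cacul1 was 0.243, and without batch 4 it was 0.0597. The difference of Cacul1 between batches 6 and 3 was not called in males alone (0.11, adjusted p = 0.169) or females alone (0.12, adjusted p = 0.149). In other settings of the batch test, among them pseudocounts of 0.5 and 10, a filter on low genes, median-of-ratios scaling, a rank-based normal transformation and no variance trend, Cacul1 and Nudt4 stayed called and Apip uncalled. The sex test called 38 genes with no covariate, and 6, 10, 10 and 9 in batches 2, 3, 4 and 6 on their own, and no member was called in any setting.

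Counts of co-varying genes moved for all 3 members. For Apip they were 0 with 20 components, in each of the 4 batches alone, without batch 2, 4 or 6, and with median-of-ratios scaling. They were 8 with the first component added, 59 without batch 3, 14 on ranks and 8 with the rank-based normal transformation and no variance trend. For Nudt4 the count was 0 with 20 components and in each batch alone, 4228 with no covariate, 946 without batch 3, 239 without batch 4, 453 without batch 6 and 1097 without the 2 rats farthest from its median. In batch 2 alone, r with Nudt4 was -0.023 for Lysmd2 and 0.21 for Dennd2a, opposite in sign to that over 80 rats, and neither was called there. For Cacul1 the count was 0 with 20 components and in batch 2 alone, 3360 with the first component added, and 2612, 2378 and 3243 in batches 3, 4 and 6 alone. With 20 components as the base, Apip had 1 call with a pseudocount of 10 (Tcp11l1), 3 with the rank-based normal transformation and no variance trend (Cd59 and Pamr1 among them) and 2 with 10 components, and Cacul1 had 1 without batch 4.

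Of the marker relations, 5 were called with no covariate, 1 without the 2 rats farthest from the median and 0 in each batch alone. The SD of Apip was 0.37 as a scaled median absolute deviation. That of Cacul1 was 0.14 with batch and sex removed and 0.078 with 20 components removed, and that of Nudt4 was 0.15 and 0.12. Apip rests on a median of 115 adjusted counts, so its spread and correlations carry more counting error than those of the other two.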
